A study of Mus musculus with 18 samples.

Results

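The 10 genes described here encode enzymes of the pentose phosphate pathway and other enzymes that make NADPH. They were chosen by name, as Pgd, Pgls, Taldo1, Tkt, Rpia, Rpe, Me1, Me2, Idh1 and Idh2, and all 10 were found among the 22485 genes of the array. Me1 had 3 probes and each of the other genes 1, so that 12 of 33026 probes with a gene symbol were used. The cells were macrophages grown from the bone marrow of mice aged 8 to 10 weeks, in 10 ng/ml M-CSF, the growth factor of macrophages, for 7 days. Mice were Nrf2-/-, without the transcription factor NRF2, or Nrf2+/+. Each of 18 arrays set 1 sample, labelled with Cy5, against an untreated macrophage reference labelled with Cy3, of a genotype that the sources used here do not give. The groups were 5 Nrf2-/- and 3 Nrf2+/+ samples given 200 µM heme-albumin for 4 h and then LPS for 4 h, 4 Nrf2-/- and 3 Nrf2+/+ samples given LPS for 4 h, and 3 Nrf2+/+ samples given albumin without heme for 4 h. LPS, bacterial endotoxin, was used at 10 ng/ml. No Nrf2-/- samples without LPS were among them. The labels of the LPS groups name no albumin, while the treatment protocol gives it before LPS, so that their time of treatment is not certain. Time in culture and albumin therefore cannot be told apart from heme. The design text calls the replicates independent and biological.

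NADPH is the electron donor with which cells recycle glutathione and thioredoxin, break down heme and, in phagocytes, make superoxide and nitric oxide. The oxidative arm of the pentose phosphate pathway makes it from glucose phosphate, and the non-oxidative arm shuffles the resulting pentoses back into glycolysis or towards nucleotides. Malic enzymes and isocitrate dehydrogenases are further sources, in the cytosol and in mitochondria. Pgd, Taldo1, Tkt and Me1 are among the metabolic genes that NRF2 is known to switch on. In macrophages the pathway is known for its activity after LPS.

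Since NRF2 acts through sites near its target genes, the sequences just upstream of the 4 genes that rose with heme in Nrf2+/+ cells are given here. They come from RefSeq (GRCm38.p6), begin 250 bases before the gene start and run 10 bases past it, 5′ to 3′ on the strand of the gene. Capitals mark TGACNNNGC, the core of the antioxidant response element to which NRF2 binds with small Maf proteins.
Me1, chr9:86695905-86696164, minus strand: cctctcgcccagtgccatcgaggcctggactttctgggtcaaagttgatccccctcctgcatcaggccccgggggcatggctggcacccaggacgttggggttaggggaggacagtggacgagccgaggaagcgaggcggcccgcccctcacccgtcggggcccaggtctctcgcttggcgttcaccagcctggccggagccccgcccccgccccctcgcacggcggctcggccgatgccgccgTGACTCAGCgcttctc
Taldo1, chr7:141391910-141392169, plus strand: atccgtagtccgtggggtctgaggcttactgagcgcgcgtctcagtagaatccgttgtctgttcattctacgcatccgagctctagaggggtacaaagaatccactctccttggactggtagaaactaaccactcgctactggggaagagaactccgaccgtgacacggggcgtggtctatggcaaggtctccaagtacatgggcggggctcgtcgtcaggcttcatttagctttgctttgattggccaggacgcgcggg
Pgd, chr4:149166696-149166955, minus strand: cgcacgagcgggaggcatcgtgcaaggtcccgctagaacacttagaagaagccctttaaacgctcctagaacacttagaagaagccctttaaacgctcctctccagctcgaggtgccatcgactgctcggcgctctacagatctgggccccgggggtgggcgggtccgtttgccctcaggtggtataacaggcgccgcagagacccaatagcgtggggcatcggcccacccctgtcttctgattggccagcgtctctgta
Tkt, chr14:30548881-30549140, plus strand: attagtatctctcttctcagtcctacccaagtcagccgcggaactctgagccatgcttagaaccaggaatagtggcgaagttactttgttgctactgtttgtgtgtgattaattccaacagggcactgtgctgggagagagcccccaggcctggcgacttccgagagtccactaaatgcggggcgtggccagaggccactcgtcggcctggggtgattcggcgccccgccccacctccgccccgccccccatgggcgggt
The motif was searched on both strands over 250 bases before and 50 after each start, and 12.4% of the 32851 windows of 300 bases in the table hold it. Of 12 such windows of 9 of the genes, 2 held it. The Me1 match began 6 bases before the start, and it overlaps TGACTCA, a motif to which AP-1 binds. The other match lay at an alternative, downstream start of Pgd, 3 bases after it, and the Pgd window shown has none. A match is a description of the letters in this window and not a site.

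Values are log2 ratios of a sample to the reference, so that a measured ratio of 0 means the level of the reference. They compare a gene across samples but not the level of different genes. A change is 1 group mean minus another, with its standard error (SE) from limma, fitted over all arrays. A change was called at a two-sided limma p, adjusted over all genes by the Benjamini-Hochberg method, under 0.05. The share of features listed at exactly 0 ran between 17.9% and 48.8% of an array, and between 44.3% and 48.8% on the LPS-treated arrays with the letter a. Of the 216 values of the 12 probes 2 were at 0, both of Me1. Nfe2l2, which encodes NRF2, was listed at 0 on all 9 Nrf2-/- arrays and on 2 of the 9 Nrf2+/+ arrays. Whether a value listed at exactly 0 was measured is unknown, so that it need not mean the level of the reference. The main fit kept such values as 0. Values are ratios to macrophages, so that marker genes cannot show whether another cell type was present, and fewer cells of a type and less RNA per cell cannot be told apart. Of 10 neutrophil markers limma called 1 higher with heme in Nrf2-/- cells and 2 in Nrf2+/+ cells, and of 12 macrophage markers it called 1 higher and 1 lower in Nrf2-/- cells and 1 higher and 2 lower in Nrf2+/+ cells. Over all genes it called 6.77% with heme in Nrf2-/- and 14.7% in Nrf2+/+ cells. The part of these markers in the results was not tested.

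Cells given heme and then LPS were set against cells given LPS, separately by genotype, to see which of these genes respond to heme and which of those responses need NRF2. In Nrf2-/- cells Me1 and Pgd rose, Rpe fell and 7 of the 10 genes were not called, where limma called 6.77% of all genes (4.1% higher and 2.67% lower). In Nrf2+/+ cells Me1, Taldo1, Pgd and Tkt rose, Rpe fell and 5 were not called, where limma called 14.7% of all genes (8.34% higher and 6.35% lower). The median change of the 10 genes was 0.04 in Nrf2-/- cells and 0.26 in Nrf2+/+ cells, while that of all genes was 0.00 in both. The arrays of the heme and LPS groups did not overlap for 2 genes in Nrf2-/- cells (7.64% of all genes) and for 6 in Nrf2+/+ cells (24.2% of all genes).

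**Figure D1:**
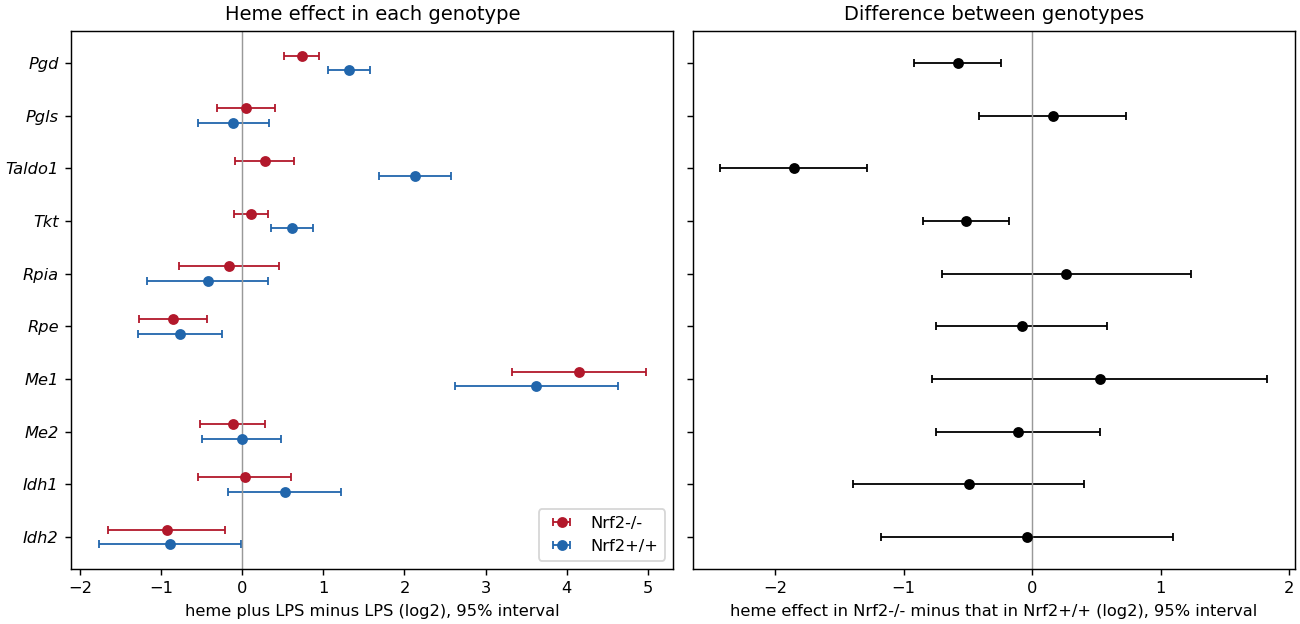
Change with heme (heme plus LPS minus LPS, log2) of the 10 genes in Nrf2-/- and Nrf2+/+ macrophages (left panel), and the difference between these changes (right panel); points are limma estimates and bars their 95% intervals. Me1 stands far above the others in both genotypes, at 4.15 in Nrf2-/- and 3.62 in Nrf2+/+ cells, and Taldo1 has the largest difference between genotypes, at -1.86.

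Pgd encodes phosphogluconate dehydrogenase, which carries out the second NADPH-making step of the oxidative arm, and it rose with heme in both genotypes. Its log2 ratios under heme and LPS were 0.79, 0.40, 0.48, 0.58 and 0.35 on the Nrf2-/- arrays and 1.27, 1.67 and 1.44 on the Nrf2+/+ arrays. Under LPS alone they were 0.02, -0.26, -0.32 and -0.28 in Nrf2-/- cells and 0.16, 0.20 and 0.07 in Nrf2+/+ cells. In neither genotype did the heme arrays overlap with the LPS arrays. The rise was 0.73 ± 0.10 in Nrf2-/- cells (SE, limma adjusted p = 0.000522), or 1.66-fold, and 1.31 ± 0.12 in Nrf2+/+ cells (limma adjusted p = 5.81e-06), or 2.48-fold. The difference between these rises, -0.58 ± 0.16 (95% interval -0.92 to -0.24), had a limma adjusted p of 0.133 and was not past the threshold. Without the Nrf2-/- heme and LPS array a it was -0.65 and was called (limma adjusted p = 0.0424), as it was without every LPS-treated array of letter a (-0.68, adjusted p = 0.0221) and with array weights (-0.53, adjusted p = 0.0233).

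Taldo1 encodes transaldolase, which with transketolase links the pentose phosphates to glycolysis, and of the 10 genes its heme effect had the largest difference between genotypes. On the Nrf2-/- arrays a to e under heme and LPS its log2 ratios were 0.29, -0.13, -0.43, -0.36 and -0.65. On the Nrf2+/+ arrays a to c under heme and LPS they were 2.14, 1.59 and 1.63. Under LPS alone they were -0.53, -0.23, -0.65 and -0.72 in Nrf2-/- cells and -0.49, -0.23 and -0.32 in Nrf2+/+ cells. Only the 3 Nrf2+/+ heme arrays stood high, and none of them overlapped with any array of the other groups. In Nrf2-/- cells the change with heme was 0.28 ± 0.17 (SE, limma adjusted p = 0.492) and the groups overlapped. In Nrf2+/+ cells Taldo1 rose by 2.13 ± 0.21 (SE, limma adjusted p = 8.29e-06), or 4.38-fold. The heme effect in Nrf2-/- minus that in Nrf2+/+ cells was -1.86 ± 0.27 (95% interval -2.43 to -1.28, limma adjusted p = 0.00319). It was the single interaction called among the 10 genes, where limma called 0.947% of all genes, 0.24% higher and 0.707% lower.

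Tkt encodes transketolase, the thiamine-dependent partner of transaldolase. Under heme and LPS its log2 ratios were -0.67, -0.18, -0.11, -0.33 and -0.51 on the Nrf2-/- arrays and 0.05, 0.26 and 0.30 on the Nrf2+/+ arrays. Under LPS alone they lay between -0.55 and -0.36 on the 4 Nrf2-/- arrays and between -0.46 and -0.33 on the 3 Nrf2+/+ arrays. The 3 Nrf2+/+ heme arrays were the only ones above 0 and overlapped with no other group. In Nrf2-/- cells the change was 0.10 ± 0.10 (SE, limma adjusted p = 0.718), and in Nrf2+/+ cells Tkt rose by 0.62 ± 0.12 (limma adjusted p = 0.00262), or 1.53-fold. The difference between genotypes was -0.51 ± 0.16 (95% interval -0.85 to -0.18, limma adjusted p = 0.209) and was called with array weights only (-0.47, adjusted p = 0.0397).

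**Figure D2:**
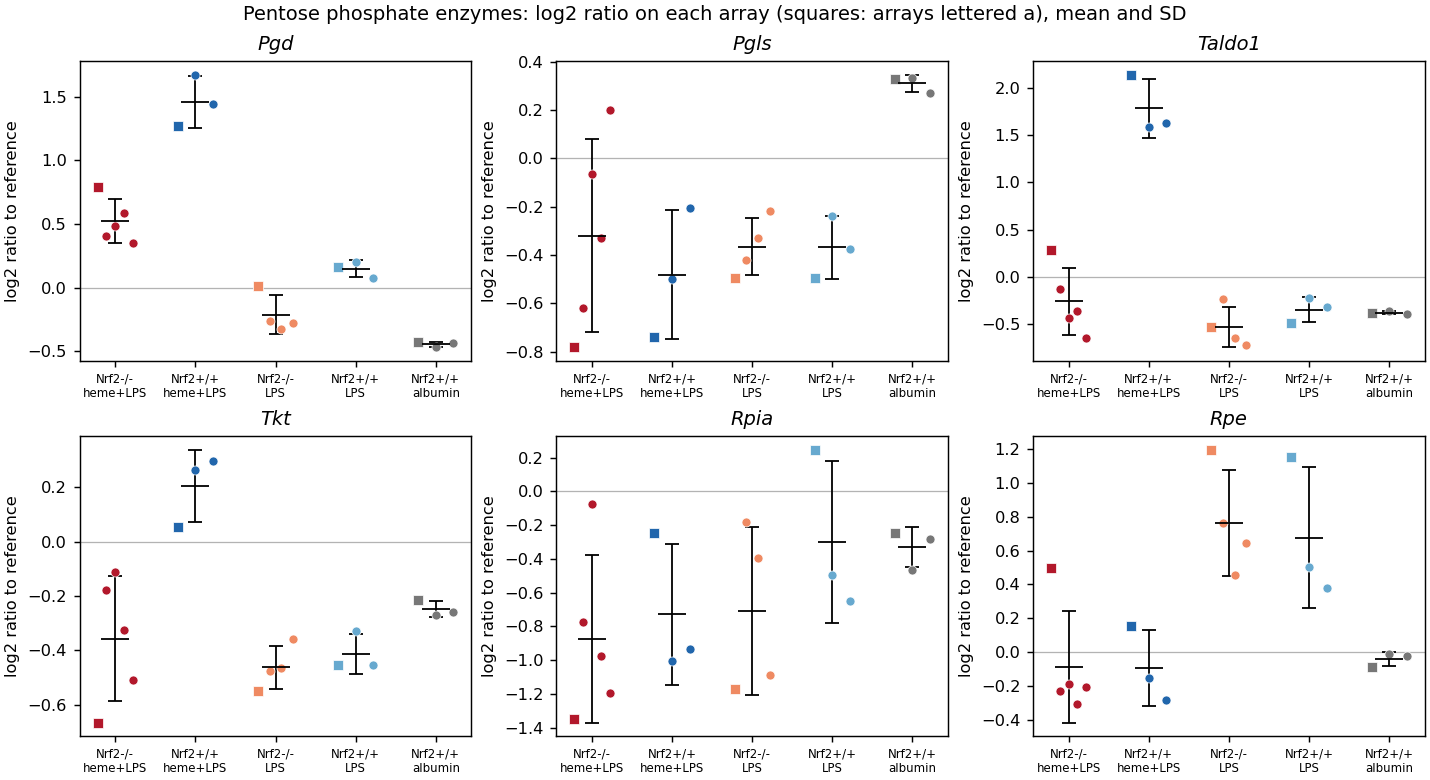
Log2 ratio to the reference of the 6 pentose phosphate genes on each array, by group (x axis); squares are arrays lettered a, circles the other arrays, and bars the mean and SD of the 3 to 5 arrays of a group. Taldo1 and Tkt stand high only on the 3 Nrf2+/+ heme arrays, Pgd is also above the LPS arrays on the Nrf2-/- heme arrays, and Rpe is higher on the LPS arrays than on most heme arrays.

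Of the 10 genes Rpe, Pgls and Rpia are the further ones of the pentose phosphate pathway, and none was called higher with heme. Rpe encodes ribulose phosphate epimerase, which prepares pentose phosphates for transketolase. Its log2 ratios under heme and LPS were 0.50, -0.23, -0.19, -0.31 and -0.21 on the Nrf2-/- arrays and 0.16, -0.15 and -0.28 on the Nrf2+/+ arrays. Under LPS alone they were 1.20, 0.76, 0.46 and 0.65 on the Nrf2-/- arrays and 1.15, 0.50 and 0.38 on the Nrf2+/+ arrays. The array lettered a was the highest in each of these 4 groups, and in Nrf2-/- cells the groups overlapped through it. Rpe fell by 0.85 ± 0.20 in Nrf2-/- cells (SE, limma adjusted p = 0.0171) and by 0.77 ± 0.24 in Nrf2+/+ cells (limma adjusted p = 0.0434). The call was lost in Nrf2-/- cells without LPS array a (-0.71, adjusted p = 0.0665), and in Nrf2+/+ cells without LPS array a (-0.53, adjusted p = 0.198), without LPS array b (-0.86, adjusted p = 0.0602) and without the heme array b (-0.74, adjusted p = 0.111) or c (-0.68, adjusted p = 0.141). Under quantile normalization it was lost in both (adjusted p = 0.0525 in Nrf2-/- and 0.0734 in Nrf2+/+ cells), as it was when only the groups compared were fitted (0.0767 in Nrf2-/- and 0.187 in Nrf2+/+ cells). The difference between genotypes was -0.08 with a 95% interval of -0.75 to 0.58.

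Pgls encodes the lactonase between both dehydrogenases of the oxidative arm. Its change with heme was 0.05 ± 0.17 in Nrf2-/- cells (SE, limma adjusted p = 0.992) and -0.11 ± 0.21 in Nrf2+/+ cells (adjusted p = 0.890). Rpia encodes ribose phosphate isomerase, which makes the sugar of nucleotides. It changed by -0.16 ± 0.29 in Nrf2-/- cells (adjusted p = 0.902) and by -0.43 ± 0.35 in Nrf2+/+ cells (adjusted p = 0.570), neither past the threshold. Rpia arrays of 1 group spread widely, with ratios of -1.35 to -0.07 on the Nrf2-/- heme arrays and a mean of -0.73 ± 0.42 on the Nrf2+/+ heme arrays (SD, n = 3). The 95% intervals of the changes ran over -0.78 to 0.45 in Nrf2-/- cells and -1.18 to 0.32 in Nrf2+/+ cells, which include falls of 0.7.

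Me1 encodes the cytosolic, NADP-dependent malic enzyme, which turns malate into pyruvate, and it had by far the largest change of the 10 genes. Under heme and LPS its log2 ratios were 4.69, 3.95, 3.71, 4.81 and 4.44 on the Nrf2-/- arrays and 5.27, 3.07 and 2.99 on the Nrf2+/+ arrays. Under LPS alone they were -0.23, 0.54, 0.35 and 0.01 on the Nrf2-/- arrays and 0.08, 0.28 and 0.09 on the Nrf2+/+ arrays. Every heme array stood more than 2 log2 units above every LPS array of either genotype. Me1 rose with heme by 4.15 ± 0.39 in Nrf2-/- cells (SE, limma adjusted p = 3.05e-05), or 17.8-fold, and by 3.62 ± 0.47 in Nrf2+/+ cells (limma adjusted p = 0.000106), or 12.3-fold. The call in Nrf2+/+ cells was lost when only the groups compared were fitted (adjusted p = 0.0562). Me1 had the largest rise of all 22485 genes in Nrf2-/- cells and was at rank 42 in Nrf2+/+ cells. Over 24 settings, the deposited values included, its rank lay between 1 and 2 in Nrf2-/- cells and between 27 and 113 in Nrf2+/+ cells. Settings that left out an array of a group outside the comparison could not move this rank, so that the settings with a say are fewer.

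The heme effect on Me1 in Nrf2-/- minus that in Nrf2+/+ cells was 0.53 ± 0.61 (limma adjusted p = 0.966), and its 95% interval of -0.78 to 1.83 leaves room for a difference in either direction. Under heme and LPS itself Nrf2-/- cells stood 0.55 ± 0.42 above Nrf2+/+ cells (limma adjusted p = 0.60), and the groups overlapped through the Nrf2+/+ array a. Without that array the rise in Nrf2+/+ cells was 2.88, and the Nrf2-/- cells stood 1.29 higher (limma adjusted p = 0.0114). Leaving out every LPS-treated array of letter a, they stood 1.20 higher (adjusted p = 0.0240). Over all fits without 1 array the Nrf2-/- cells stood 0.152 to 1.29 higher (limma adjusted p = 0.0114 to 0.9675). The difference between heme effects ran from 0.135 to 1.275 in such fits and was never called (lowest limma adjusted p = 0.137). The array lettered a of the Nrf2+/+ heme group listed 46.4% of its features at 0, against 17.9% on array b and 41.3% on array c. The part of this in the Me1 value was not tested.

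**Figure D3:**
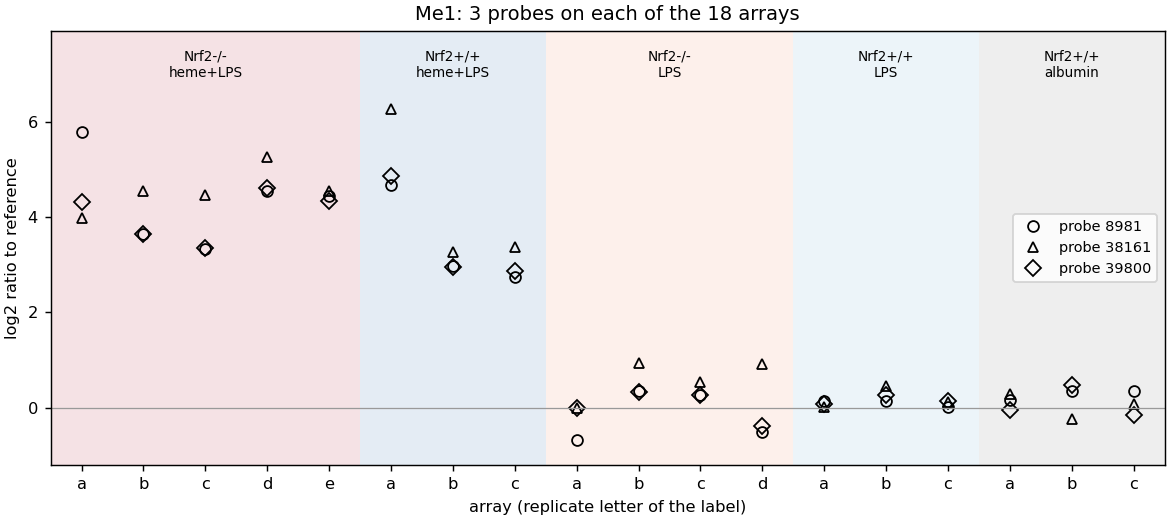
Log2 ratio to the reference of the 3 Me1 probes (symbols) on each of the 18 arrays (x axis, by group and replicate letter). All 3 probes stand above 2.7 on each heme array of both genotypes and below 1 on each other array.

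The 3 Me1 probes all stood higher with heme. Their heme effects were 4.50, 3.95 and 4.01 in Nrf2-/- cells and 3.37, 4.10 and 3.40 in Nrf2+/+ cells. Among the heme arrays they differed most on those lettered a. On the Nrf2-/- heme array a they stood at 5.79, 3.97 and 4.32, and on the Nrf2+/+ heme array a at 4.68, 6.26 and 4.87. The 2 probe values listed at 0 were on the Nrf2-/- LPS array a.

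Me2 and Idh2, which encode mitochondrial enzymes, and Idh1 showed no called change with heme in either genotype. Me2 encodes a malic enzyme that in mammals uses mainly NAD. Its change was -0.12 ± 0.19 in Nrf2-/- cells (SE, limma adjusted p = 0.876) and -0.01 ± 0.23 in Nrf2+/+ cells (adjusted p = 1), with 95% intervals of -0.52 to 0.28 and -0.50 to 0.48. These intervals exclude a rise of the size of that of Me1 in either genotype. Idh1 encodes the cytosolic, NADP-dependent isocitrate dehydrogenase. Its change was 0.03 ± 0.27 in Nrf2-/- cells (adjusted p = 1) and 0.52 ± 0.33 in Nrf2+/+ cells (adjusted p = 0.402). Its ratios under heme and LPS spread over -1.73 to -0.41 on the Nrf2-/- arrays and -0.89 to -0.05 on the Nrf2+/+ arrays, which overlapped.

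Idh2 encodes the mitochondrial, NADP-dependent isocitrate dehydrogenase. Its log2 ratios under heme and LPS were -2.43, -0.66, -0.72, -1.79 and -1.63 on the Nrf2-/- arrays and -2.31, -0.94 and -1.09 on the Nrf2+/+ arrays. Under LPS alone they lay between -0.68 and -0.35 on the Nrf2-/- arrays and between -0.71 and -0.38 on the Nrf2+/+ arrays. The groups overlapped in Nrf2-/- cells only, and in both genotypes the heme array lettered a was the lowest. The difference was -0.93 ± 0.34 in Nrf2-/- cells (SE, limma adjusted p = 0.135) and -0.89 ± 0.41 in Nrf2+/+ cells (adjusted p = 0.204), not past the threshold. The groups' means under heme and LPS were nearly equal, at -1.45 ± 0.75 in both Nrf2-/- (SD, n = 5) and Nrf2+/+ cells (n = 3), and the 95% interval of the difference between heme effects was -1.17 to 1.1. That interval includes a difference of 1 log2 unit between heme effects in either direction. The interval of the genotype difference under heme and LPS itself was narrower, at -0.79 to 0.78.

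**Figure D4:**
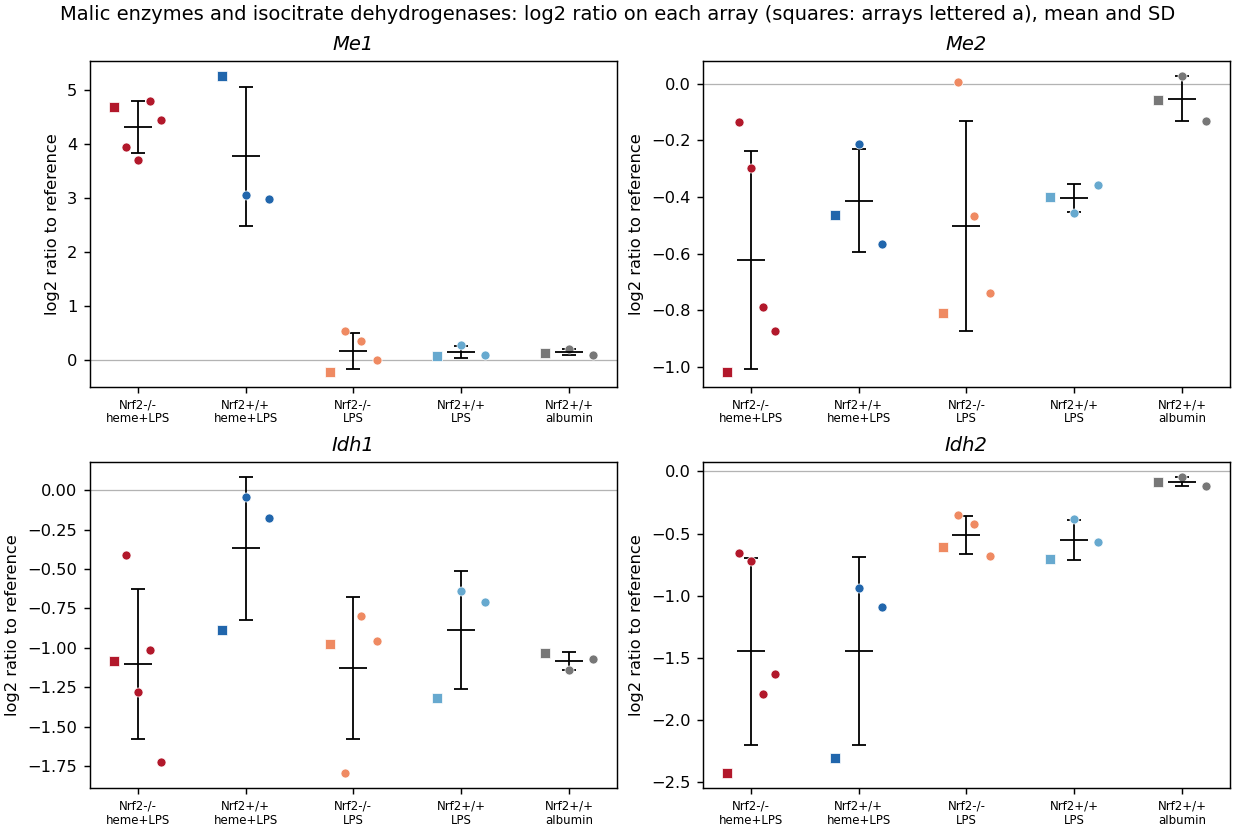
Log2 ratio to the reference of Me1, Me2, Idh1 and Idh2 on each array, by group (x axis); squares are arrays lettered a, circles the other arrays, and bars the mean and SD of the 3 to 5 arrays of a group. Me1 is high on the 8 heme arrays of both genotypes, while Idh2 is lowest on the heme arrays lettered a, at -2.43 in Nrf2-/- and -2.31 in Nrf2+/+ cells.

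Knockout and wild type were then compared within each treatment. Under heme and LPS 3 of the 10 genes were lower in Nrf2-/- cells and 0 were higher, where limma called 5.29% of all genes (3.16% lower and 2.13% higher). Taldo1 was lower by 2.04 ± 0.19 on the log2 scale (SE, limma adjusted p = 1.6e-05), which put it at 0.243 of the Nrf2+/+ level. Pgd differed by -0.94 ± 0.11 (adjusted p = 0.000130), or 0.522 of that level, and Tkt by -0.56 ± 0.11 (adjusted p = 0.00612), or 0.677 of it. The Tkt call was lost when only these groups were fitted (adjusted p = 0.156). Marker genes differed in this comparison too: of 12 macrophage markers Fcgr1 was higher in Nrf2-/- cells (3.09 ± 0.68, limma adjusted p = 0.0143) and Cebpa lower (-3.09 ± 0.55, adjusted p = 0.00347), and of 10 neutrophil markers S100a8 was lower (-1.95 ± 0.44, adjusted p = 0.0170). Their part in the differences of the 10 genes was not tested. For these 3 enzyme genes alone the arrays of the genotypes did not overlap, as for 7.79% of all genes. The difference of Idh1, -0.74 ± 0.29, was not past the threshold (adjusted p = 0.205). Under LPS alone limma called 0 of the 10 genes and 0.00445% of all genes, which is 1 gene. Of the 10 genes 1 had an unadjusted limma p under 0.05, as had 557 of all 22485 genes. It was also the single gene whose arrays did not overlap (3.02% of all genes). It was Pgd, at -0.21 ± 0.15 in Nrf2-/- (SD, n = 4) and 0.15 ± 0.07 in Nrf2+/+ cells (n = 3), a difference of -0.36 ± 0.11 (SE, unadjusted p = 0.00717, limma adjusted p = 1).

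LPS was compared with albumin in Nrf2+/+ cells to see what LPS did to these genes without heme. The labels of the LPS samples name no albumin and the treatment protocol gives it before LPS, so that LPS cannot be told apart from a difference in albumin or in time in culture. Pgd and Rpe rose and Pgls fell, 3 of 10 genes where limma called 28.6% of all genes (12.3% higher and 16.3% lower). Pgd stood at 0.15 ± 0.07 under LPS and -0.45 ± 0.02 under albumin (SD, n = 3 each), a rise of 0.59 ± 0.12 (SE, limma adjusted p = 0.00199). Rpe stood at 0.68 ± 0.42 under LPS and -0.04 ± 0.04 under albumin, a rise of 0.72 ± 0.24 (adjusted p = 0.0357), lost without any 1 of the 3 albumin arrays (adjusted p = 0.0735 to 0.0876) and without LPS array a (adjusted p = 0.169). Pgls stood at -0.37 ± 0.13 under LPS and 0.31 ± 0.04 under albumin, a fall of 0.68 ± 0.21 (adjusted p = 0.0216), lost without albumin array a or b or LPS array a or c (adjusted p = 0.0538 to 0.0752). The arrays of the groups did not overlap for 6 of the 10 genes (47.2% of all genes). Me1 (0.01 ± 0.47, adjusted p = 1) and Taldo1 (0.03 ± 0.21, adjusted p = 0.987) did not pass the threshold. When only these groups were fitted, Me2 (-0.35, adjusted p = 0.00842) and Idh2 (-0.47, adjusted p = 0.0173) were called and Rpe was lost (adjusted p = 0.0713). Idh1, at 0.19 ± 0.33 with an adjusted p of 0.744, was called under quantile normalization (0.87, adjusted p = 0.0348).

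Heme plus LPS against albumin in Nrf2+/+ cells shares its samples with the comparisons above. Heme-albumin and LPS took 4 h each and albumin alone 4 h, so that heme, LPS and time in culture cannot be told apart. Of the 10 genes 4 rose and 2 fell, where limma called 27.3% of all genes (12.9% higher and 14.4% lower). Pgd rose by 1.90 ± 0.12, Taldo1 by 2.17 ± 0.21, Me1 by 3.63 ± 0.47 and Tkt by 0.45 ± 0.12 (SE, limma adjusted p = 1.28e-07, 4.17e-06, 5.96e-05 and 0.0117). Pgls fell by 0.79 ± 0.21 (adjusted p = 0.00969) and Idh2 by 1.36 ± 0.41 (adjusted p = 0.0224). Rpe was not called (-0.05 ± 0.24, adjusted p = 0.949), with means of -0.09 under heme and LPS and -0.04 under albumin. The Idh2 call was lost without any 1 of the albumin arrays (adjusted p = 0.0537 to 0.0593), without the heme array a (-0.93, adjusted p = 0.107) and without every LPS-treated array of letter a (-0.93, adjusted p = 0.0503), and when only these groups were fitted (adjusted p = 0.0719). Idh1, at 0.71 ± 0.33 with an adjusted p of 0.126, was called under quantile normalization (1.33, adjusted p = 0.00306) and with array weights (0.86, adjusted p = 0.0136). For 8 of the 10 genes the arrays did not overlap (43.7% of all genes).

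Seen by level, the genes fell into different orders of the 5 groups. Pgd had a graded one, with means of 0.52 ± 0.18 in Nrf2-/- and 1.46 ± 0.20 in Nrf2+/+ cells under heme and LPS, -0.21 ± 0.15 in Nrf2-/- and 0.15 ± 0.07 in Nrf2+/+ cells under LPS, and -0.45 ± 0.02 under albumin (SD). With the groups ordered by their means, from the highest to the lowest, no neighbouring groups overlapped. For Taldo1 the 4 groups other than Nrf2+/+ under heme and LPS lay between means of -0.53 and -0.26, and each overlapped with its neighbour. For Tkt these 4 groups lay between -0.46 and -0.25. Me1 split into the heme groups of both genotypes and the other 3 groups, whose means lay between 0.14 and 0.17. For Pgls the albumin arrays stood above all others, which overlapped with each other, and for Me2 the albumin arrays, at a mean of -0.05, stood above the Nrf2+/+ LPS arrays but overlapped with the Nrf2-/- LPS arrays, 1 of which stood at 0.01.

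The genes whose ratios were nearest to each of the 5 genes called with heme in Nrf2+/+ cells were found by the root mean square difference over all 18 arrays. This is a description, since the arrays are those compared above. Nearest to Taldo1 were Kif2a, Gde1 and Akr1c13, with 0.27, 0.32 and 0.34 log2 units, and nearest to Pgd were Ptpn12, Praf2 and Rnf11, with 0.24, 0.26 and 0.26. Nearest to Tkt were Thoc3, Rnf181 and Cnot10, with 0.16, 0.17 and 0.17, and nearest to Rpe were Pus10, Ppip5k2 and Ppp1r3b, with 0.20, 0.21 and 0.23. Me1 had no gene as near. Dnmt3l was nearest with 0.66, at means of 4.35 in Nrf2-/- and 4.54 in Nrf2+/+ cells under heme and LPS and 0.42 in Nrf2-/- and 1.21 in Nrf2+/+ cells under LPS, followed by Afp with 0.87 and Uchl1 with 0.985.

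Related genes of the same routes were read beside the 10. Of 13 other pentose phosphate genes 12 were measured; G6pdx, the gene of the first enzyme of the pathway, was not analysed here. With heme 2 of the 12 rose and 1 fell in Nrf2-/- cells, and 1 rose and 0 fell in Nrf2+/+ cells. Over all genes 4.1% rose and 2.67% fell in Nrf2-/- cells, and 8.34% rose and 6.35% fell in Nrf2+/+ cells. So 1 of 12 is near the share of all genes. Counts with heme in the lists that follow are to be read against these shares, and other counts against the share given beside them. H6pd encodes an enzyme of the endoplasmic reticulum that carries out the oxidative steps there. It rose in both, by 0.62 ± 0.17 in Nrf2-/- cells (SE, limma adjusted p = 0.0462) and by 1.73 ± 0.21 in Nrf2+/+ cells (adjusted p = 6.55e-05), and the difference of -1.11 ± 0.27 was not past the threshold (adjusted p = 0.0865). Under LPS against albumin H6pd fell by 1.27 ± 0.21 in Nrf2+/+ cells (adjusted p = 0.000404). Its Nrf2+/+ means were -0.095 under albumin, -1.36 under LPS and 0.37 under heme and LPS. Prps1l3, of the family that makes phosphoribosyl pyrophosphate, rose by 0.57 ± 0.13 in Nrf2-/- cells (adjusted p = 0.0167). The phosphoglucomutase gene Pgm1 fell there by 0.62 ± 0.16 (adjusted p = 0.0273). Pgm1 was also the single gene of the 12 called between genotypes under heme and LPS, at -1.33 ± 0.17 (adjusted p = 0.000257). In that comparison limma called 5.29% of all genes. G6pd2 is so close in sequence to G6pdx that its probe may read both; it was not called with heme in Nrf2+/+ cells (0.81 ± 0.35, adjusted p = 0.163). It rose against albumin, by 1.31 ± 0.35 under LPS (adjusted p = 0.0102) and by 2.13 ± 0.35 under heme and LPS (adjusted p = 0.000384). The limits given above for comparisons with albumin hold here too.

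Among 24 genes of other NADPH, malate, isocitrate and folate routes, 2 rose and 0 fell with heme in Nrf2-/- cells, and 3 rose and 1 fell in Nrf2+/+ cells. Pcx encodes pyruvate carboxylase, which makes oxaloacetate, the precursor of malate. It stood at -0.69 ± 0.36 in Nrf2-/- (SD, n = 5) and 2.93 ± 0.03 in Nrf2+/+ cells (n = 3) under heme and LPS, against -0.41 ± 0.21 in Nrf2-/- and -0.36 ± 0.22 in Nrf2+/+ cells under LPS. Its heme effect was -0.28 ± 0.16 in Nrf2-/- cells (SE, limma adjusted p = 0.422) and 3.30 ± 0.19 in Nrf2+/+ cells (adjusted p = 1.97e-07), and the interaction of -3.58 ± 0.25 was called (adjusted p = 6.22e-06). Nadk2, the mitochondrial NAD kinase gene, had heme effects of 0.28 ± 0.27 in Nrf2-/- cells (adjusted p = 0.722), 2.63 ± 0.33 in Nrf2+/+ cells (adjusted p = 7.34e-05) and an interaction of -2.36 ± 0.42 (adjusted p = 0.0142). Under LPS against albumin Nadk2 fell by 2.10 ± 0.33 in Nrf2+/+ cells (adjusted p = 0.000226). Mthfd2l, a mitochondrial folate enzyme gene, rose in both genotypes, by 0.71 ± 0.16 in Nrf2-/- cells (adjusted p = 0.0130) and 1.12 ± 0.19 in Nrf2+/+ cells (adjusted p = 0.000986). Nadk, the cytosolic NAD kinase gene, rose in Nrf2-/- cells by 0.47 ± 0.11 (adjusted p = 0.0212). Under heme and LPS 5 of the 24 genes were lower in Nrf2-/- than in Nrf2+/+ cells and 0 higher, among them Aldh1l2 (-1.25 ± 0.26, adjusted p = 0.0103) and Mthfd1l (-1.05 ± 0.27, adjusted p = 0.0338), both of mitochondrial folate metabolism. Over all genes limma called 3.16% lower and 2.13% higher in this comparison.

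Enzymes that spend NADPH were read as a further list. Of its 12 measured genes 4 rose and 0 fell with heme in Nrf2-/- cells (median 0.64), and 7 rose and 1 fell in Nrf2+/+ cells (median 1.73). The largest rises of the list in Nrf2+/+ cells were Hmox1 (4.91 ± 0.34), Nqo1 (3.42 ± 0.32) and Txnrd1 (2.87 ± 0.34). In Nrf2-/- cells Hmox1 rose by 4.01 ± 0.28 and Txnrd1 by 1.43 ± 0.28, while Nqo1 was not called. Gsr, the glutathione reductase gene, rose by 1.83 ± 0.16 in Nrf2-/- cells (SE, limma adjusted p = 1.7e-05) and by 1.99 ± 0.19 in Nrf2+/+ cells (adjusted p = 7.9e-06), an interaction of -0.17 with a 95% interval of -0.70 to 0.37. Akr1b8, an aldo-keto reductase gene, showed 0.07 ± 0.17 in Nrf2-/- cells (adjusted p = 0.952) and rose by 2.36 ± 0.20 in Nrf2+/+ cells (adjusted p = 2.97e-06), an interaction of -2.29 ± 0.26 (adjusted p = 0.000639). Of the interactions of this list 1 was higher and 2 were lower, where limma called 0.24% of all genes higher and 0.707% lower. The lower ones were those of Akr1b8 and Nqo1 (-2.67 ± 0.42, adjusted p = 0.00515). The higher one was Nos2, the inducible nitric oxide synthase gene, at 2.96 ± 0.53 (adjusted p = 0.0144), whose heme effect was -0.78 ± 0.34 in Nrf2-/- cells (adjusted p = 0.238) and -3.75 ± 0.41 in Nrf2+/+ cells (adjusted p = 2.49e-05). Glycolysis and the tricarboxylic acid cycle, which share intermediates with these routes, gave 2 more lists. With heme 2 of 16 measured glycolysis genes rose and 1 fell in Nrf2-/- cells, and 5 rose and 1 fell in Nrf2+/+ cells. Between genotypes under heme and LPS 7 of the 16 were lower in Nrf2-/- cells, among them the glucose transporter gene Slc2a1 (-1.11 ± 0.23, adjusted p = 0.0108) and the pyruvate kinase gene Pkm (-0.74 ± 0.10, adjusted p = 0.000447). Over all genes limma called 3.16% lower in this comparison. Of 16 cycle genes 0 were called with heme in Nrf2-/- cells, while 3 rose and 1 fell in Nrf2+/+ cells, and 0 differed between genotypes under heme and LPS. With heme limma called 6.77% of all genes in Nrf2-/- and 14.7% in Nrf2+/+ cells, and between genotypes under heme and LPS 5.29%. Each count of 0 of 16 is therefore near the share of all genes and is no result about the cycle.

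**Figure D5:**
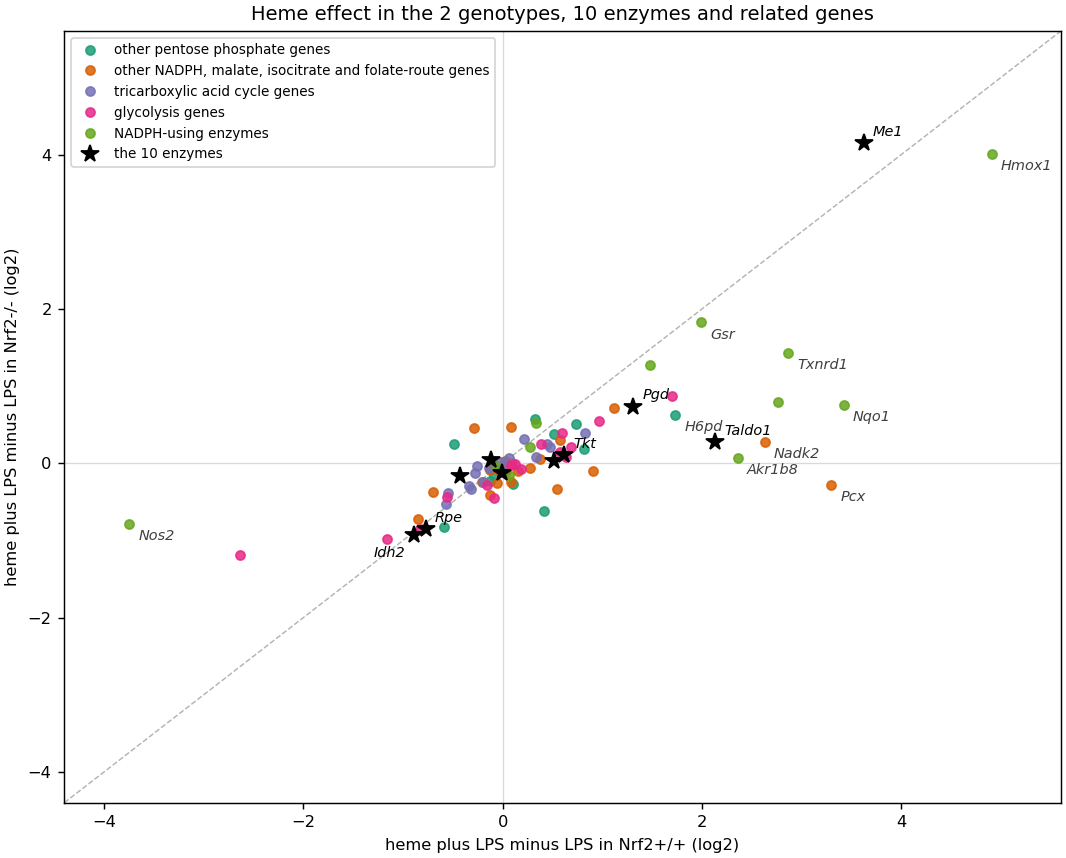
Change with heme (heme plus LPS minus LPS, log2) in Nrf2-/- (y axis) and Nrf2+/+ macrophages (x axis), for the 10 enzymes (stars) and 5 lists of related genes (dots); the dashed line marks equal change. Me1 and Gsr lie near the line, while Taldo1, Pcx, Nadk2 and Akr1b8 lie near 0 in Nrf2-/- cells and between 2 and 4 in Nrf2+/+ cells.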

How the data were processed

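RNA was hybridised to 18 Agilent 2-colour arrays, 1 sample (Cy5) and the untreated reference (Cy3) on each, per the labels. The deposited values are log10 ratios of sample over reference, made with Agilent Feature Extraction 10.5.1.1 per the submitters' processing notes. No source states the log base; it was taken from how the values are written, since 100.0% of those of the 2000 features read had the format of the program's log ratio, and from their span, -2.15 to 3.59. How the authors corrected background and dyes is not stated. A dye effect common to all arrays stays in the levels and cancels in differences between groups, and the number of arrays limits the precision.

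Ratios were converted to log2, and probes of 1 gene were averaged, named through the platform annotation. Of 44397 features 33026 had 1 gene symbol, 0 several and 11371 none, and gene identifiers (32438 matched) changed 0 symbols. Group means were fitted over all 18 arrays with limma 3.58.1 (lmFit, eBayes) in R 4.3.3, with no filter. The script was tested on simulated data. The 7 comparisons used 1 spread per gene for all groups. Alternatives were quantile normalization, centring, values at 0 set to missing, a filter on genes at 0, the median over probes, the replicate letter as a block, only the groups compared, array weights, and leaving out arrays.

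The labels do not say that letters pair samples, and the main fit used no pairing. As a description, it was asked between which groups the deviations of like-lettered arrays all correlated above 0.1. They did between the knockout groups (0.216 to 0.586), between genotypes under LPS (0.196 to 0.579) and between genotypes under heme and LPS (0.228 to 0.533). They did not between the wild-type heme and LPS groups (0.012 to 0.476) or with albumin. In each range given here the arrays lettered a had the highest correlation, and what they share was not tested.

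Every one of the 10 genes was named. Of each other list up to 4 called genes and 2 not called per comparison could be named, by size, with the 3 genes nearest to a called member. The members and lists were chosen with earlier results of these data known. In the lists Irg1, Pkm2 and Pc were read as Acod1, Pkm and Pcx. Markers of dendritic cells (8 measured), lymphocytes (9) and erythroid cells (5) had 0 called genes with heme in either genotype. Stromal markers (7 measured) had 1 higher in Nrf2-/- cells and 1 higher and 1 lower in Nrf2+/+ cells. Since limma called 6.77% of all genes in Nrf2-/- and 14.7% in Nrf2+/+ cells, a count of 0 in lists this short is no result about these cell types. Figures were drawn with matplotlib 3.10.9.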

Additional observations from a re-analysis of the deposited data

Results flagged for a closer look

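The heme effect on Taldo1 differed between genotypes by a test of the difference itself, with -1.86 log2 units in Nrf2-/- minus Nrf2+/+ cells (limma adjusted p = 0.00319). The log2 difference with heme was positive in both, at 0.28 in Nrf2-/- and 2.13 in Nrf2+/+ cells.

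Rpe on the Nrf2-/- heme and LPS array a stood at 0.50, apart from the other 4 arrays of its group, which lay between -0.31 and -0.19. Its gap to the nearest array was 0.856 of the range of the group. By chance about 0.05 of such groups are marked, and 20 groups of 4 or 5 arrays were examined.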

How the results depend on the processing

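Of 1200 differences of single genes recomputed under an alternative, 1163 kept their side of the threshold, 26 lost a call, 11 gained one and 0 called differences changed sign. Leaving out 1 array accounted for 17 of the losses and 2 of the gains. Most of the differences were not called in the main fit, so that the 1163 are mainly differences that stayed uncalled. The median over probes and values at 0 set to missing could not change a difference of the genes with 1 probe. With the replicate block no call of the 10 genes changed: 5 were called with heme in Nrf2+/+ cells, 3 in Nrf2-/- cells, 1 in the interaction, 3 between genotypes under heme and LPS, 0 between genotypes under LPS, 3 for LPS against albumin and 6 for heme plus LPS against albumin. In that fit limma called 18%, 8.49%, 0.938%, 4.76%, 0%, 34.2% and 33.3% of all genes in the same order of comparisons. Of these genes, 3 in place of 5 were called with heme in Nrf2+/+ cells when only the groups compared were fitted, where fewer arrays set the spread and Rpe and Me1 (limma adjusted p = 0.0562) were lost. In the interaction 3 in place of 1 were called with array weights, 2 without the LPS-treated arrays lettered a, and 1 to 2 when 1 array was left out. For LPS against albumin the count without 1 array was 1 to 3. The cause was not tested. Of the mean levels, 10 of 200 moved by more than the SD of their group, all under albumin, where the SD was small.

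The count of all genes called moved by more than 1.5 times in some settings. Fitting only the groups compared gave 752 in place of 1523 for heme in Nrf2-/- cells, 1545 in place of 3303 for heme in Nrf2+/+ cells, 116 in place of 213 for the interaction and 317 in place of 1189 between genotypes under heme and LPS. Array weights gave 5340 for heme in Nrf2+/+ cells, 879 for the interaction and 2124 between genotypes under heme and LPS. Without Nrf2-/- LPS array a heme in Nrf2-/- cells had 951, and without 1 array the interaction had 135 to 323. Between genotypes under LPS 1 gene was called, and 6 without the LPS-treated arrays lettered a. Deposited were ratios without the signal of either channel, so that how far a probe stood above background is unknown, and 3 to 5 arrays a group limit the precision.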
